A study of Mus musculus with 2 samples.

Results

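The 10 genes described here encode lysosomal proteins of mouse myeloid leukemia cells. Ctsb, Ctsc, Ctsh, Ctss and Ctsz encode cysteine cathepsins, Ctsa a serine carboxypeptidase, Ctsd an aspartic protease, and Lamp1, Lamp2 and Cd63 membrane proteins of late endosomes and lysosomes. They were taken by name, as a set of lysosomal proteases and membrane proteins, and not by a threshold on their values. They are 10 of the 54736 genes named in the count matrix and of the 22376 with at least 1 UMI (unique molecular identifier, which marks a single captured transcript) in the cells used.

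Transcripts of single cells were counted in the mouse acute myeloid leukemia (AML) line 63.3 with 10x Genomics chemistry and MULTI-seq, in which anchored DNA barcodes mark each culture before pooling. The groups are cultures given 2 µM brequinar, an inhibitor of the pyrimidine synthesis enzyme DHODH, for 6, 12, 24 or 48 h, and cultures washed into medium without beta-estradiol for the same times, each series with its own 0 h culture. All cultures came from growth medium with 0.5 µM beta-estradiol and 1% conditioned medium that supplies stem cell factor. The labels give no genotype and name a vehicle without saying which cultures had it. No untreated culture at 6, 12, 24 or 48 h is among the conditions, so treatment and time in culture cannot be told apart. Each of the 10 conditions was 1 culture, so no difference below has a replicate check and none was tested. Intervals are exact 95% intervals that cover counting error only.

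The conditions held 528 to 1536 cells and 5236694 to 19931921 spliced UMIs, and 3 counts correspond to 0.151 to 0.573 CPM (counts per 1000000 UMIs of the condition). The 8 myeloid progenitor markers, among them Kit, Cd34, Mpo and Hoxa9, had counts in every culture. They summed to 2033 CPM in the brequinar 0 h culture and 2056 CPM in the withdrawal 0 h culture, so the labelled cell type had its markers.

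Lysosomes break down protein, lipid and carbohydrate delivered by endocytosis, phagocytosis and autophagy. Cathepsins are made as inactive precursors, sorted to the acidic lysosome and activated there, while LAMP proteins line the inner face of its membrane. Mature neutrophils, eosinophils and macrophages carry many lysosomes or lysosome-related granules, and cathepsin C removes the activation dipeptide of the neutrophil granule serine proteases.

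Promoters were read because many lysosomal genes carry an E-box in which transcription factors of the TFEB family, USF factors and MYC-MAX can bind. The 250 bases upstream of each RefSeq start (build GRCm38.p6) were searched on both strands for CACGTG and for the longer TCACGTGA, which contains it. Of 32851 promoters in that table, 6.02% held CACGTG and 0.785% held TCACGTGA. The table holds 8 of the 10 genes, all but Ctsb and Ctsh. CACGTG occurred upstream of 3 of the 8, at Ctsa, Ctsd and Lamp1, and TCACGTGA at Ctsa and Ctsd. The windows below show the clearest difference among the genes, 4 copies in a short stretch before Lamp1. Capitals mark CACGTG.

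Lamp1, chr8:13159093-13159160, plus strand: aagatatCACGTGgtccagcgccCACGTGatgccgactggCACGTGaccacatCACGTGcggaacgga
Ctsd, chr7:142387880-142387965, minus strand: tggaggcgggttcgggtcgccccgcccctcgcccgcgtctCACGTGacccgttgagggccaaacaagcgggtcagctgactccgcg
Ctsa, second of its starts in the table, chr2:164833721-164833772, plus strand: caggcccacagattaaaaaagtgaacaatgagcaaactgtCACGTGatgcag

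The 4 Lamp1 copies begin 61, 45, 28 and 15 bases before the start, the Ctsd copy shown 98 bases before it, and the Ctsa copy 12 bases before it. Ctsd has another copy, 245 bases before its start. A match is a description of the letters, not a binding site. The windows of Ctsc, Ctss, Ctsz, Lamp2 and Cd63 held no CACGTG.

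Against 0 h, 8 of the 10 genes reached 20 CPM in at least 1 culture and were higher at 48 h of withdrawal by at least 1.5-fold, the fold used for every call. At 48 h of brequinar 7 genes reached 20 CPM, of which 6 were higher and 1, Ctsz, was not past 1.5-fold. Lamp1 (16.9 and 17 CPM in the 2 cultures at 0 h) and Ctss (1.45 CPM or less at 0 h) count as measured only through a treated culture, so they had to be higher to be counted. Of the 6 genes already at 20 CPM or more at 0 h (Ctsa, Ctsb, Ctsc, Ctsz, Lamp2 and Cd63), 5 were higher at 48 h of brequinar and all 6 at 48 h of withdrawal. The withdrawal call of Cd63, at 1.53-fold, was lost at 1.496-fold when mitochondrial and ribosomal protein genes were left out of the totals. Ctsd and Ctsh stayed under 20 CPM in every culture. All comparisons of a series share its 0 h culture, and in sums over a culture, more cells of a kind and more RNA per cell cannot be told apart.

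The share of all measured genes past 1.5-fold sets these counts in context. At 48 h of brequinar 25.7% of 6213 genes were higher and 17.3% lower, and among genes at 20 CPM or more at 0 h 17.4% were higher. At 48 h of withdrawal 21.5% of 6082 genes were higher and 40.7% lower, and among genes at 20 CPM or more at 0 h 12.9% were higher. The median log2 ratio (with 5 CPM added to both values) was 1.15 over the 7 lysosomal genes measured and 0.04 over all measured genes at 48 h of brequinar. With withdrawal it was 1.62 over the 8 genes and -0.33 over all genes, and over the 6 genes at 20 CPM at 0 h it was 1.44. The 0 h cultures of the series were close to each other. For brequinar over withdrawal at 0 h, 0% of 5490 genes were 1.5-fold higher and 0.0546% lower, and none of the 6 lysosomal genes measured was past the fold.

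**Figure D1:**
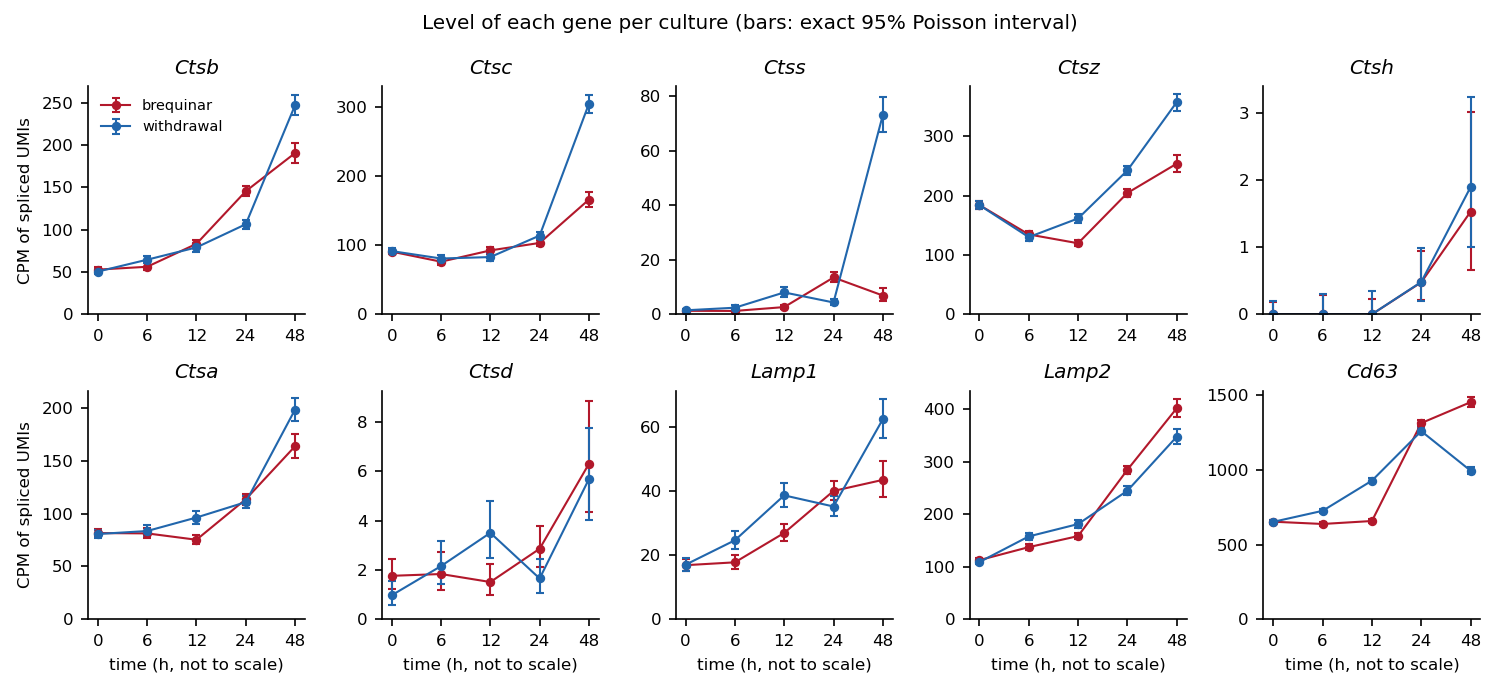
CPM of spliced UMIs (y axis, from 0) of each gene against time (x axis, 0, 6, 12, 24 and 48 h, evenly spaced), in the brequinar series and the withdrawal series, with exact 95% Poisson intervals. Most genes climb late in both series, Ctss reaches 73.1 CPM only at 48 h of withdrawal, and Cd63 ends at 1454 CPM with brequinar and 995 CPM with withdrawal.

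Ctsb encodes a cysteine cathepsin with both endopeptidase and carboxypeptidase activity. Among the cathepsins of this set at 20 CPM or more, it alone was higher by 1.5-fold at 12 h, in both series. Outside the set, Ctsl was 1.90-fold higher (1.74 to 2.07) and Ctso 2.98-fold higher (2.50 to 3.57) at 12 h of brequinar. At 12 h of withdrawal Ctsl was 1.29-fold higher. In the brequinar series Ctsb stood at 52.7, 56.1, 83.2, 145 and 190 CPM at 0, 6, 12, 24 and 48 h. In the withdrawal series it stood at 50.4, 64.4, 79.0, 106 and 247 CPM. The level was higher at each later time within both series, although 6 h of brequinar, at 1.06-fold, was not apart from 0 h beyond counting error. At 48 h it was 3.61-fold higher with brequinar (interval 3.31 to 3.94) and 4.90-fold higher with withdrawal (4.52 to 5.31) than at 0 h.

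Ctsc encodes cathepsin C, which trims and so activates granule serine proteases. Its brequinar levels were 90.8, 76.2, 92.6, 103 and 166 CPM. Its withdrawal levels were 91.6, 80.8, 82.9, 114 and 305 CPM. Both series were lowest at 6 h, and the 48 h withdrawal culture stood apart from the other 9. The 48 h folds were 1.83 with brequinar (1.69 to 1.99) and 3.33 with withdrawal (3.13 to 3.56).

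Ctss encodes cathepsin S, which stays active at neutral pH and cuts the invariant chain of MHC class II in antigen-presenting cells. It had 25, 16, 42, 227 and 36 UMIs in the brequinar series, or 1.25, 1.22, 2.63, 13.5 and 6.87 CPM. In the withdrawal series it had 27, 29, 87, 63 and 502 UMIs, or 1.45, 2.40, 8.02, 4.32 and 73.1 CPM. The highest level was thus at 48 h of withdrawal, the next at 24 h of brequinar, and the 5 lowest cultures (both at 0 h, both at 6 h and 12 h of brequinar) each overlapped its neighbour in rank, although 12 h of brequinar lay above the brequinar 0 h culture by 2.10-fold (1.25 to 3.59). The 48 h withdrawal level was 50.5-fold that at 0 h (34.3 to 77.3). Free RNA, profiled in barcodes of 2 to 100 UMIs over the whole pool, held Ctss at 8.38 CPM (15 UMIs), so that only the 24 h brequinar and 48 h withdrawal cultures lay above it.

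Ctsz encodes cathepsin Z (also called X), a carboxypeptidase. The brequinar levels were 184, 135, 120, 205 and 254 CPM, and the withdrawal levels were 184, 130, 162, 243 and 358 CPM. Both series were lowest at 6 or 12 h and above their 0 h level from 24 h. The 12 h brequinar value was 1.54-fold below 0 h (1.45 to 1.63), the 1 call of a lower gene against 0 h in this set. At 48 h Ctsz was 1.38-fold higher with brequinar (1.29 to 1.47) and 1.94-fold higher with withdrawal (1.84 to 2.05).

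Ctsh, an aminopeptidase among the cysteine cathepsins, had 0, 0, 0, 8 and 8 UMIs in the brequinar series and 0, 0, 0, 7 and 13 UMIs in the withdrawal series. The 48 h values were 1.53 CPM with brequinar and 1.89 CPM with withdrawal, beside 1.12 CPM in free RNA. The exact upper limit of the interval for a count of 0 was 0.185 CPM in the brequinar 0 h culture and 0.198 CPM in the withdrawal 0 h culture.

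Ctsa encodes cathepsin A, a serine carboxypeptidase that also holds the sialidase NEU1 and beta-galactosidase in a complex. Its brequinar levels were 81.5, 81.2, 75.2, 114 and 164 CPM. Its withdrawal levels were 80.6, 83.5, 96.3, 111 and 199 CPM. At 48 h it was 2.01-fold higher with brequinar (1.85 to 2.18) and 2.46-fold higher with withdrawal (2.29 to 2.65). Its partner Neu1 was 3.26-fold higher with brequinar and 2.85-fold higher with withdrawal, while Glb1, which encodes beta-galactosidase, was at 82.3 CPM at 48 h of brequinar against 27.2 CPM at 0 h, and at 26.7 CPM at 48 h of withdrawal against 28.1 CPM at 0 h.

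Ctsd, which encodes the aspartic protease cathepsin D, was close to undetected. It had 35, 24, 24, 48 and 33 UMIs in the brequinar series and 18, 26, 38, 24 and 39 UMIs in the withdrawal series. The highest culture, 48 h of brequinar, held 6.30 CPM, and free RNA held 12.3 CPM (22 UMIs). In GENCODE M21, 34.4% of the exonic bases of Ctsd are shared with exons of Gm49369 on the same strand, which had 0 UMIs in the cells, and none of the last 500 exonic bases of Ctsd are shared. How the authors' counting treated that overlap is not given in the sources used here, so the Ctsd values are uncertain.

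Lamp2 and Lamp1 encode the major glycoproteins of the lysosomal membrane, and a splice form of LAMP2 serves as receptor in chaperone-mediated autophagy. Lamp2 stood at 112, 137, 158, 284 and 401 CPM with brequinar and at 109, 157, 181, 244 and 347 CPM with withdrawal. It was higher at each later time in both series and highest at 48 h of brequinar. The 48 h folds were 3.57 with brequinar (3.37 to 3.8) and 3.20 with withdrawal (3.01 to 3.39).

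Lamp1 stood at 16.9, 17.8, 26.9, 40.1 and 43.5 CPM with brequinar and at 17, 24.7, 38.7, 35.2 and 62.5 CPM with withdrawal. The levels at 24 h of withdrawal, 12 h of withdrawal, 24 h of brequinar and 48 h of brequinar followed each other with overlapping intervals. The 48 h folds were 2.58 with brequinar (2.17 to 3.06) and 3.67 with withdrawal (3.17 to 4.26).

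Cd63 encodes a tetraspanin of late endosomes, lysosomes and secretory granules that appears on the surface of granulocytes when they degranulate. Its brequinar levels were 653, 638, 658, 1314 and 1454 CPM. Its withdrawal levels were 652, 726, 928, 1260 and 995 CPM. With brequinar the first 3 cultures were close and the last 2 high, and with withdrawal the highest was 24 h. Summed eosinophil markers were also highest at 24 h among the withdrawal cultures, at 16602 CPM, and highest at 48 h among the brequinar cultures, at 11671 CPM. At 24 h of withdrawal nearly all of that sum was Prg2 (9559 CPM) and Prg3 (6973 CPM). Siglecf was at 36.4 CPM there, and Ear1 and Ear2 had 0 UMIs. The part of these markers in the Cd63 level was not tested. The 48 h folds were 2.23 with brequinar (2.16 to 2.29) and 1.53 with withdrawal (1.48 to 1.57).

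Earlier times gave fewer calls. At 6 h no gene was past 1.5-fold in either series, beside 8.82% of all measured genes higher and 4.97% lower with brequinar, and 12.3% higher and 8.11% lower with withdrawal. At 12 h of brequinar 2 of 7 measured genes (Ctsb and Lamp1) were higher and 1 (Ctsz) lower, beside 13.5% and 4.67% of all genes. At 12 h of withdrawal 3 of 7 (Ctsb, Lamp1 and Lamp2) were higher, beside 13.4% of all genes higher and 11.2% lower. At 12 h the calls of Lamp1 and Ctsz with brequinar and of Ctsb and Lamp2 with withdrawal were each lost under 1 alternative. At 24 h Ctsb, Lamp1, Lamp2 and Cd63 were higher in both series, and no gene was lower. At 24 h of brequinar 29.2% of all measured genes were higher and 13.8% lower, and 20.6% of those at 20 CPM or more at 0 h were higher. At 24 h of withdrawal the shares were 9.46% higher, 11.9% lower and 6.75% higher among those at 20 CPM or more at 0 h.

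**Figure D2:**
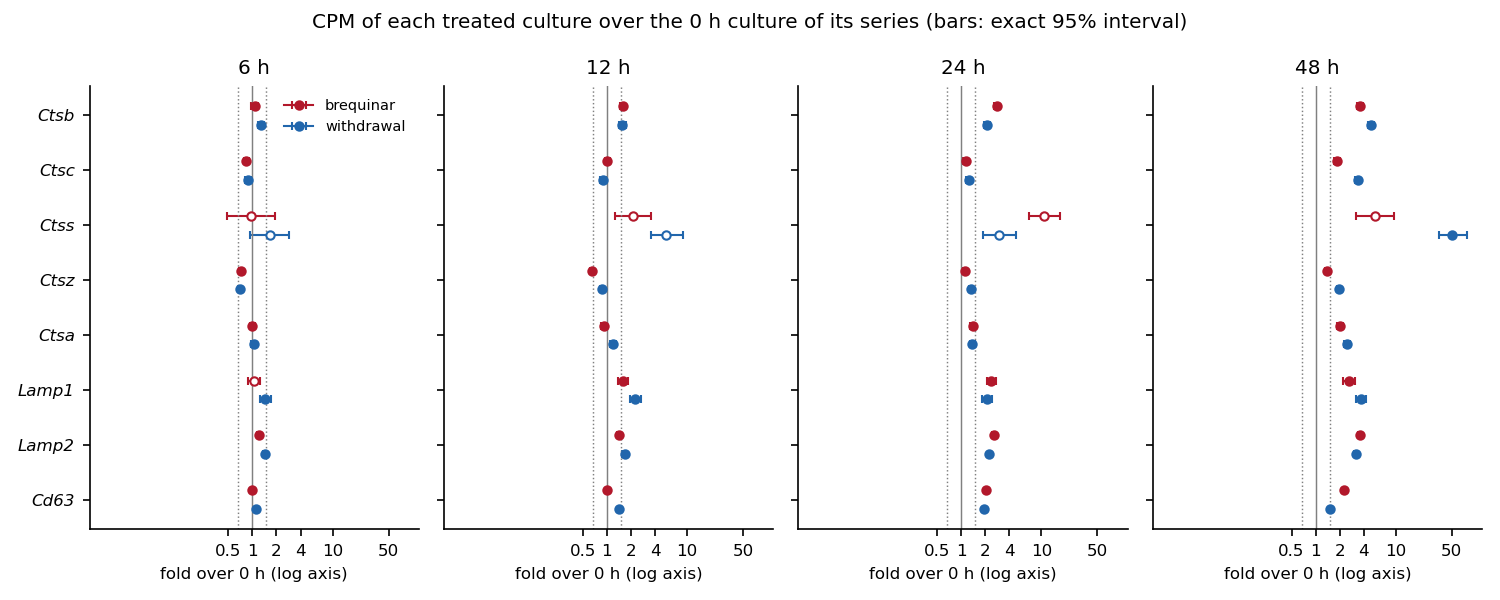
Fold of each treated culture over the 0 h culture of its series (x axis, log scale) for 8 genes (y axis) at 6, 12, 24 and 48 h, brequinar above withdrawal, with exact 95% intervals. Open points are under 20 CPM in both cultures, dotted lines mark 1.5-fold, and Ctss at 48 h of withdrawal lies at 50.5-fold while the other points at 48 h lie between 1.38 and 5.48.

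The steps between successive times differed from gene to gene. From 12 to 24 h of brequinar the ratio of the later over the earlier culture was 2.00 for Cd63 (interval 1.95 to 2.05), 1.80 for Lamp2, 1.75 for Ctsb and 1.71 for Ctsz. The next brequinar step, 48 h over 24 h, was 1.11 for Cd63, 1.41 for Lamp2, 1.31 for Ctsb and 1.24 for Ctsz. Ctsc ran the other way with brequinar, at 1.12 for 24 h over 12 h and 1.61 for 48 h over 24 h. With withdrawal the 48 h over 24 h step was above the 24 h over 12 h step for Ctsc, Ctsb, Ctsa, Ctss and Lamp1. It was 2.68 for Ctsc (2.51 to 2.86), 2.32 for Ctsb, 1.79 for Ctsa, 16.9 for Ctss (13 to 22.3) and 1.78 for Lamp1 (1.56 to 2.02). Lamp1 had 0.91 for 24 h over 12 h. Lamp2 had 1.42 after 1.35, with overlapping intervals, and Ctsd, under 20 CPM, had 3.45 after 0.47. Ctsz had about the same ratio in both withdrawal steps, 1.5 for 24 h over 12 h and 1.47 for 48 h over 24 h. For Cd63 that step was 0.79 (0.77 to 0.81). These ratios compare single cultures and have no replicate check.

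Summed by kind of protein, the 7 proteases stood at 789 CPM at 48 h of brequinar, against 412 CPM at 0 h, and at 1189 CPM at 48 h of withdrawal, against 409 CPM at 0 h. The 3 membrane proteins summed to 1899 CPM at 48 h of brequinar, against 782 CPM at 0 h, and to 1405 CPM at 48 h of withdrawal, against 778 CPM at 0 h. The sum of all 10 was 2689 CPM at 48 h of brequinar and 2594 CPM at 48 h of withdrawal. The totals were thus close while the proteases took a larger part of the total with withdrawal. The closeness held only with Cd63 counted. Without Cd63 the other genes summed to 1234 CPM at 48 h of brequinar and 1599 CPM at 48 h of withdrawal.

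Between the treatments at the same time, few genes were apart. At 6 h no gene was past 1.5-fold for brequinar over withdrawal, beside 1.9% of all genes higher and 1.45% lower. At 12 h none was, beside 13.2% higher and 7.33% lower, although Cd63 was at 0.71 of its withdrawal level (0.69 to 0.73). At 24 h none was, beside 29.6% higher and 8.05% lower. At 48 h, 2 of the 8 measured genes, Ctss and Ctsc, were lower with brequinar and none was higher, beside 37.6% of 6112 genes higher and 8.57% lower.

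At 48 h Ctss was 10.6-fold lower with brequinar than with withdrawal (7.58 to 15.4), and Ctsc was 1.84-fold lower (1.70 to 1.99). Cd63 was 1.46-fold higher with brequinar (1.41 to 1.51) and Lamp2 1.16-fold higher (1.09 to 1.23). Ctss did not keep one order over time: brequinar over withdrawal it was 0.33 at 12 h (0.22 to 0.48) and 3.12 at 24 h (2.35 to 4.20), with all 4 values under 20 CPM. The median log2 ratio at 48 h was -0.42 over the 8 genes and 0.34 over all genes. With a scaling that sets the bulk of genes level (median of ratios, a log2 shift of 0.36 at 48 h), 6 genes were lower with brequinar in place of 2, with Ctsa, Ctsb, Ctsz and Lamp1 added.

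**Figure D3:**
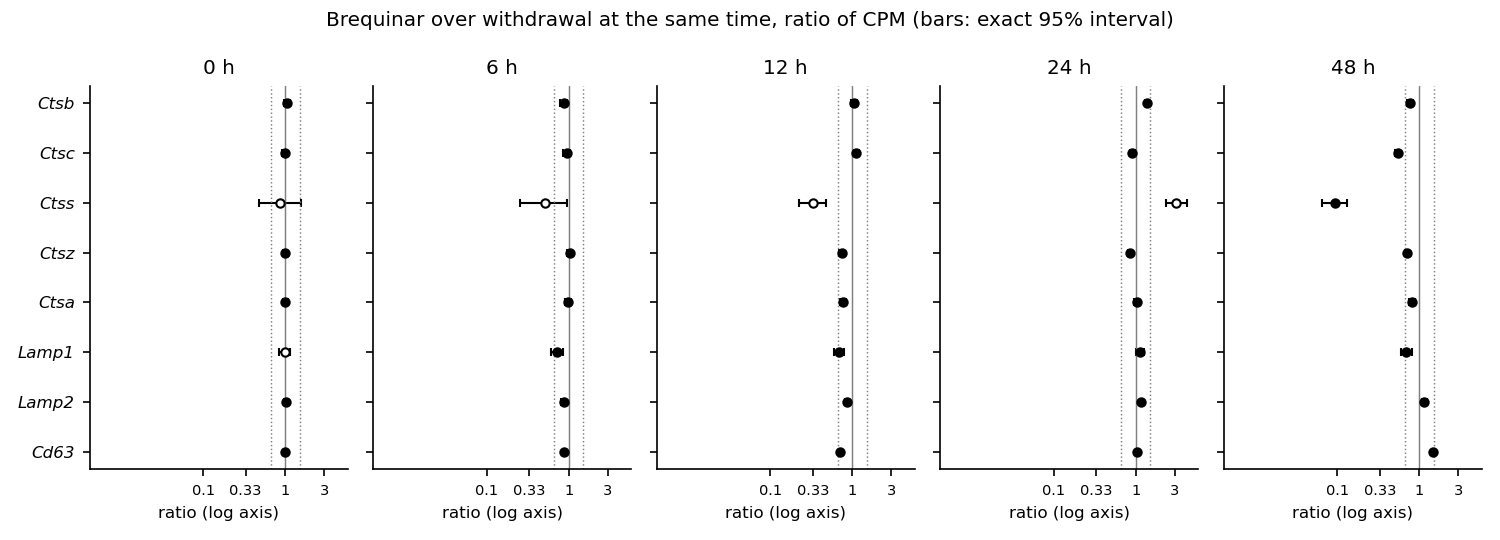
CPM with brequinar over CPM with withdrawal at the same time (x axis, log scale) for 8 genes (y axis) at 0, 6, 12, 24 and 48 h, with exact 95% intervals. Open points are under 20 CPM in both cultures, dotted lines mark 1.5-fold, and at 48 h Ctss lies at 0.094 and Ctsc at 0.54 while Cd63 lies at 1.46.

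Other lysosomal genes were taken from lists by function. Their counts at 48 h stand beside 25.7% of all measured genes higher and 17.3% lower with brequinar, and 21.5% higher and 40.7% lower with withdrawal. A list gene under 20 CPM at 0 h counts as measured only where the treated culture is high, so the counts among genes at 20 CPM or more at 0 h are given too, beside 17.4% of all such genes higher with brequinar and 12.9% with withdrawal. Of 38 lysosomal hydrolases and their cofactors, 29 were measured at 48 h of brequinar, of which 23 were higher and 0 lower, with a median log2 ratio of 1.14. With withdrawal 28 were measured at 48 h, 20 were higher and 1, Manba, was lower, with a median of 1.22. Among hydrolases at 20 CPM or more at 0 h, 15 of 21 were higher with brequinar and 13 of 21 with withdrawal. Grn, which encodes the granulin precursor progranulin, was 5.52-fold higher with brequinar and 8.65-fold higher with withdrawal. Man2b1, a lysosomal mannosidase, was 4.57-fold higher with brequinar and 5.81-fold higher with withdrawal. Psap, the precursor of the saposins that help degrade sphingolipids, was 2.91-fold higher with brequinar and 6.44-fold higher with withdrawal.

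The proton pump that acidifies lysosomes, the vacuolar ATPase, had 16 of 17 listed genes measured. At 48 h 9 were higher with brequinar and 8 with withdrawal, and none was lower. All 16 were at 20 CPM or more at 0 h. The median log2 ratios were 0.62 with brequinar and 0.59 with withdrawal. The 3.29-fold of Atp6v1b2 with withdrawal and the 2.69-fold of Atp6v1e1 with brequinar were the largest folds of the list in each series. Of 30 other lysosomal membrane proteins, 7 of 17 measured were higher and 1 lower with brequinar, and 11 of 18 were higher and 2 lower with withdrawal. Among those at 20 CPM or more at 0 h, 2 of 12 were higher with brequinar, close to the share of all such genes, and 4 of 11 with withdrawal. Cd68, a LAMP family protein that is also on the monocyte marker list, was at 33 CPM at 48 h of brequinar against 4.31 CPM at 0 h, and at 35.6 CPM at 48 h of withdrawal against 5.42 CPM at 0 h. Litaf, a protein of the late endosomal membrane, was 2.61-fold higher with brequinar and 3.66-fold higher with withdrawal.

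Sorting genes, which carry enzymes from the Golgi to the lysosome, mostly stayed within 1.5-fold. Of 12 measured, 1 was higher and 1 lower with brequinar, and 2 were higher and 1 lower with withdrawal, and of those at 20 CPM or more at 0 h none of 11 was higher with brequinar and none of 10 with withdrawal. Sort1, which encodes the sorting receptor sortilin, was under 20 CPM at 0 h and was 6.76-fold higher with brequinar and 7.08-fold higher with withdrawal. Of the regulators of lysosomal genes, 4 of 8 were higher and 1 lower with brequinar, and 3 of 7 were higher and 2 lower with withdrawal. At 20 CPM or more at 0 h these were 3 of 7 higher with brequinar and 2 of 6 with withdrawal. Fnip1, a partner of folliculin, was 3.58-fold higher with brequinar and 3.47-fold higher with withdrawal. Tfec, a transcription factor of the TFEB family, was 3.26-fold higher with brequinar and 1.87-fold higher with withdrawal. Among autophagy genes 7 of 11 were higher and 0 lower with brequinar, and 6 of 10 were higher and 1 lower with withdrawal. Of autophagy genes at 20 CPM or more at 0 h, 2 of 6 were higher with brequinar and 3 of 7 with withdrawal. Map1lc3a, an LC3 protein of the autophagosome, was 4.33-fold higher with brequinar and 3.21-fold higher with withdrawal, and Atg7 was 2.32-fold higher with brequinar and 3.56-fold higher with withdrawal.

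Genes that act on cathepsins or are acted on by them also differed from 0 h. Of 14 listed inhibitors, 7 were measured at 48 h of brequinar with 6 higher, and 11 at 48 h of withdrawal with 10 higher and 1, Cst7, lower. Of the 6 inhibitors at 20 CPM or more at 0 h, 5 were higher in each series. Stfa1, a stefin that inhibits cysteine cathepsins in the cytosol, was 37.5-fold higher with brequinar and 119-fold higher with withdrawal. Stfa2l1 was 17.2-fold higher with brequinar and 200-fold higher with withdrawal, where BC117090 had the largest ratio, 228 (interval 62.1 to 1898). The stefin A genes are near-identical copies, so the split of reads between them is uncertain. Cstb, which encodes cystatin B, was 2.86-fold higher with brequinar and 4.40-fold higher with withdrawal. Of 6 proteases that cathepsin C activates, 4 were measured, all at 20 CPM or more at 0 h, and 3 were higher in each series. Elane, neutrophil elastase, was 7.04-fold higher with brequinar and 4.21-fold higher with withdrawal. Prss57, another serine protease of granules, was 4.03-fold higher with brequinar and 3.38-fold higher with withdrawal, while Ctsg, cathepsin G, was at 3437 CPM at 48 h of brequinar against 4415 CPM at 0 h and 2.45-fold lower at 48 h of withdrawal. Of 7 other cathepsins 2 were measured at 48 h, Ctsg and Ctsl, and Ctsl, a cysteine cathepsin, was 2.87-fold higher with brequinar and 3.21-fold higher with withdrawal.

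Among the tetraspanins, the family of Cd63, 1 of 10 was higher and 1 lower with brequinar, beside 25.7% of all measured genes higher and 17.3% lower. With withdrawal 4 of 11 were higher and 5 lower, beside 21.5% of all measured genes higher and 40.7% lower. At 20 CPM or more at 0 h these were 1 of 10 higher with brequinar and 3 of 10 with withdrawal. Tspan13 was at 6.85 CPM at 48 h of withdrawal against 56.0 CPM at 0 h, while Cd53 was 1.77-fold higher with brequinar and 2.01-fold higher with withdrawal. Of 7 genes of MHC class II processing, the route in which cathepsin S acts, 2 were measured. H2-DMb1 was 5.04-fold higher with brequinar and 2.60-fold higher with withdrawal, and H2-DMa was at 26.0 CPM at 48 h of brequinar against 21.8 CPM at 0 h and 3.71-fold higher with withdrawal. The class II chain genes H2-Aa and H2-Ab1 and the invariant chain gene Cd74 were not measured.

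**Figure D4:**
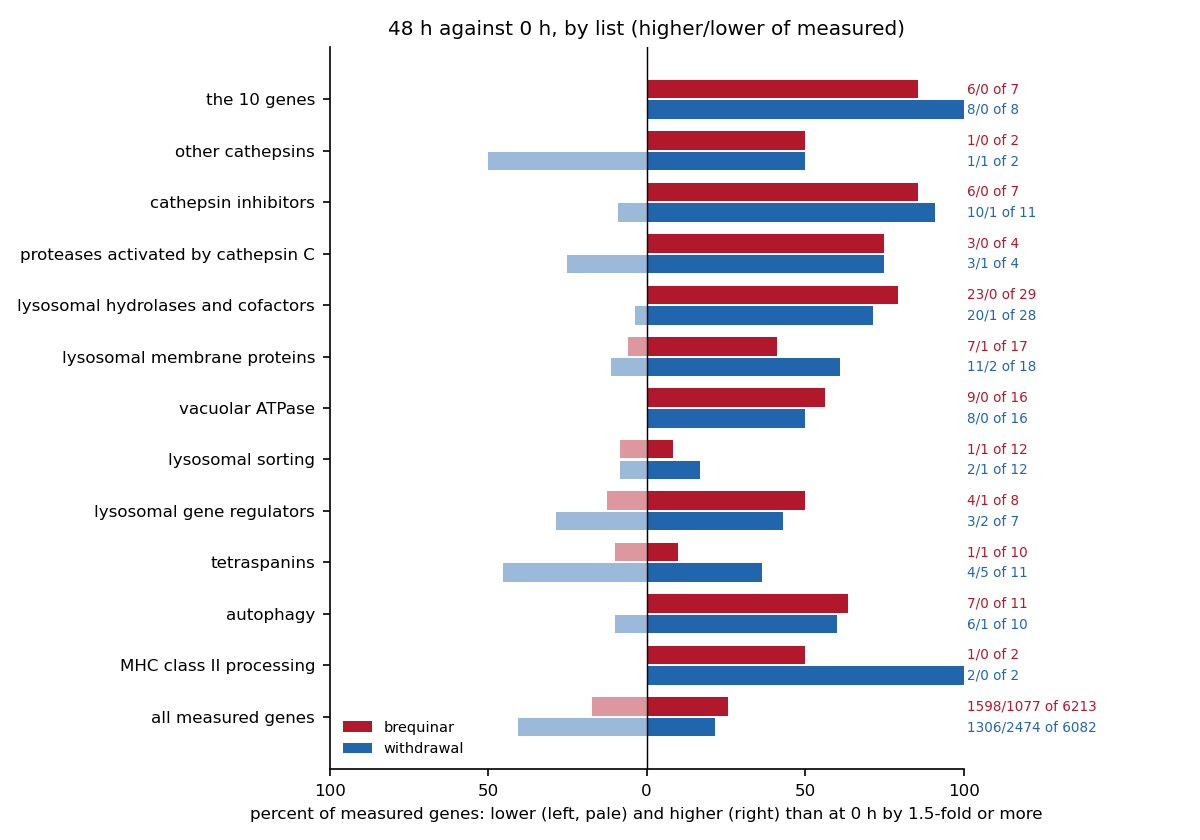
Percent of the measured genes of each list (y axis) that were at least 1.5-fold higher (right) or lower (left, pale) at 48 h than at 0 h (x axis, percent), brequinar above withdrawal, with the numbers higher and lower of those measured at the right edge. The 10 genes had 6 of 7 higher with brequinar and 8 of 8 with withdrawal, while of all measured genes 25.7% were higher with brequinar and 21.5% with withdrawal.

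Markers of maturing cells differed from 0 h in the same cultures. The 12 neutrophil markers summed to 1976 CPM at 48 h of brequinar, against 333 CPM at 0 h, and to 59154 CPM at 48 h of withdrawal, against 390 CPM at 0 h. The 12 monocyte and macrophage markers summed to 822 CPM at 48 h of brequinar, against 140 CPM at 0 h, and to 665 CPM at 48 h of withdrawal, against 140 CPM at 0 h, with C1qa at 0 in all 4 cultures. The 9 eosinophil markers summed to 11671 CPM at 48 h of brequinar, against 1445 CPM at 0 h, and to 9181 CPM at 48 h of withdrawal, against 1237 CPM at 0 h. Ear1 and Ear2 of that list were at 0 in all 4 cultures. The 8 mast cell and basophil markers summed to 3175 CPM at 48 h of brequinar, against 398 CPM at 0 h, and to 275 CPM at 48 h of withdrawal, against 432 CPM at 0 h. Megakaryocyte markers reached at most 179 CPM in these 4 cultures, lymphoid markers 162 CPM, erythroid markers 22.5 CPM and dendritic cell markers 13.3 CPM. The part of maturing cells in the lysosomal folds was not tested.

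Single cells were compared to see whether most cells or few held the difference. The 10 genes together took a median of 0.114, 0.110, 0.116, 0.211 and 0.257% of a cell's UMIs at 0, 6, 12, 24 and 48 h of brequinar. The medians were 0.113, 0.121, 0.155, 0.198 and 0.240% in the withdrawal series. At 48 h the 10th percentile of cells was 0.144% with brequinar, against 0.0642% at 0 h, and 0.128% with withdrawal, against 0.0663% at 0 h. The low end of the cells was thus higher as well as the middle. Cells thinned to 2500 UMIs, which removes the difference in depth, had, with 13 to 249 shallower cells left out per condition, a median of 6 UMIs of the 10 genes at 48 h in either series, against 3 at 0 h. The 90th percentile was 0.419% at 48 h of brequinar, against 0.179% at 0 h, and 0.452% at 48 h of withdrawal, against 0.182% at 0 h.

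Ctsc and Ctss were spread unevenly over the cells at 48 h of withdrawal. In cells thinned to 2500 UMIs, the variance of the count over its mean, which is near 1 for purely random sampling, was 2.68 for Ctsc and 2.28 for Ctss. It was 1.02 for Lamp2, 1.18 for Ctsb and 1.41 for Cd63 in the same cells. In the 515 thinned cells at 48 h of brequinar the highest value was 1.82, for Cd63.

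A Ctss UMI was found in 127 of 888 thinned cells at 48 h of withdrawal, or 14.3% (exact interval 12.1 to 16.8%), and in 19.1% of the 963 cells with all UMIs kept, at a median depth of 6509 UMIs per cell. The share was 0.31% in the thinned cells of the brequinar 0 h culture and 0.68% in those of the withdrawal 0 h culture, and 1.26% and 1.92% with all UMIs kept, at median depths of 14849 and 15229 UMIs. At 24 h of brequinar it was 3.07% and at 48 h of brequinar 1.75%. The cells compared next were chosen by Ctss itself, so the values that follow describe which other genes they carried and are not a test.

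At 48 h of withdrawal the 127 cells with a Ctss UMI had a 4.39-fold higher Ctsc level than the other 761 cells (3.8 to 5.07), at 1036 CPM against 236 CPM. Ctsa was 2.68-fold higher in them (2.20 to 3.25), Ctsb 2.09-fold and Ctsz 2.00-fold. The membrane proteins were closer, with Lamp2 at 428 CPM in cells with Ctss against 349 CPM in the others, Lamp1 at 72.4 CPM against 60.4 CPM and Cd63 at 942 CPM against 1011 CPM.

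The same 127 cells differed from the others in markers of several lineages. Monocyte and macrophage markers summed to 1975 CPM in them against 553 CPM in the others, neutrophil markers to 39181 CPM against 66836 CPM and eosinophil markers to 687 CPM against 11051 CPM. Dendritic cell markers summed to 85.0 CPM (27 UMIs) in them against 5.26 CPM (10 UMIs) in the others. That ratio, 16.2 (7.59 to 37.5), was the largest of the marker lists, but it rests on few UMIs and on part of the list. Of the 8 dendritic cell markers, 4 (Siglech, Cd209a, H2-Aa and H2-Ab1) had 0 UMIs in this culture. Csf1r, the receptor for the macrophage growth factor CSF1, was at 205 CPM in them against 36.8 CPM in the others. Cd14, a co-receptor for lipopolysaccharide, was at 721 CPM against 142 CPM. Among neutrophil genes Mmp8, a granule collagenase, was at 787 CPM against 163 CPM, while the granule gene Ngp was at 315 CPM against 3224 CPM and Camp, the cathelicidin gene, at 72.4 CPM against 1035 CPM. Prg2, the eosinophil major basic protein gene, was at 283 CPM against 9368 CPM. C1qa and C1qb had 0 UMIs in both sets of cells, and S100a8 was at 13499 CPM in cells with Ctss against 22068 CPM in the others, so no cell type is given to them here.

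**Figure D5:**
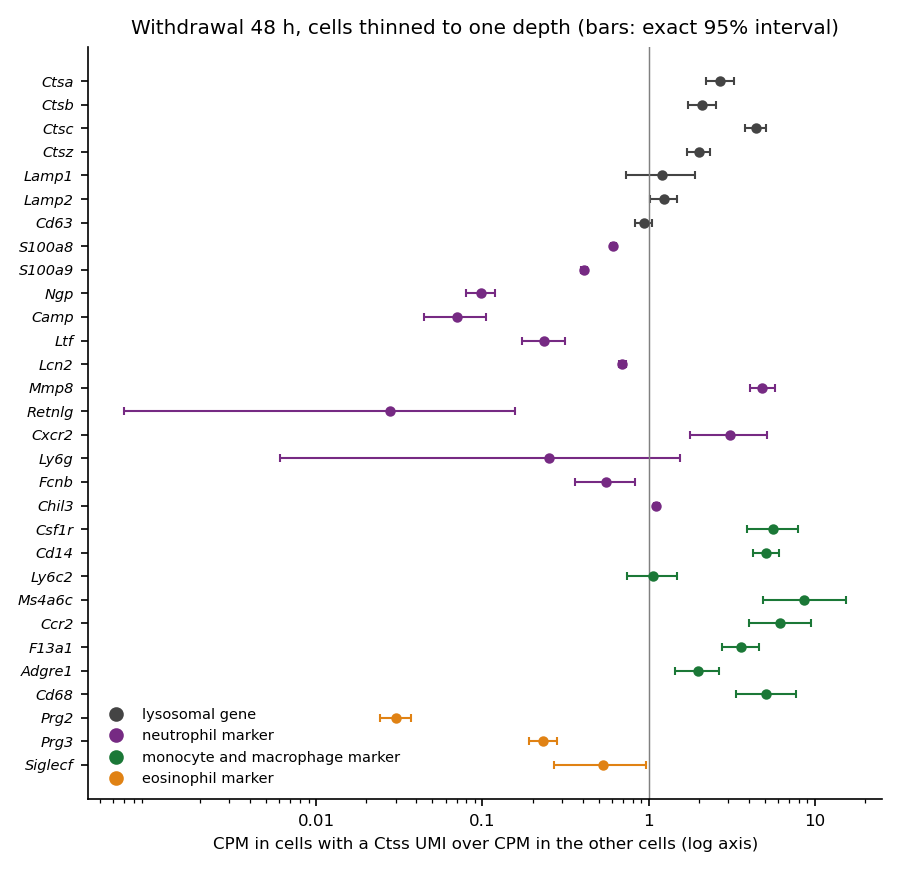
Withdrawal 48 h culture, CPM in the 127 cells with a Ctss UMI over CPM in the other 761 cells (x axis, log scale), in cells thinned to 2500 UMIs, with exact 95% intervals for counting error. Genes (y axis) had at least 20 UMIs over both sets and at least 1 in the 127 cells. Epx, with 0 UMIs in the 127 cells and 76 in the others, is therefore not drawn. Ctsc lies at 4.39 and Csf1r at 5.56, while Camp lies at 0.070 and Prg2 at 0.030.

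Cells rich in neutrophil genes were set apart in the same culture. They were ranked by the UMI share of 6 neutrophil genes (Ngp, Camp, Lcn2, Chil3 and the calprotectin genes S100a9 and S100a8). In the thinned cells S100a9 and S100a8 had the most UMIs of the 6. In the 240 cells with the largest share, Ctss was at 30.2 CPM against 87.2 CPM in the other 723 cells, and Ctsc at 230 CPM against 330 CPM. The 6 genes took 18.6% of the UMIs of the 240 cells and 1.65% of those of the other 723. With those UMIs left out of the totals the ratio was 0.42 for Ctss (0.31 to 0.56) and 0.84 for Ctsc (0.75 to 0.94). Lamp1 (0.67), Ctsz (0.71), Ctsa (0.77) and Cd63 (0.83) also had intervals under 1. The intervals of Ctsb, Lamp2, Ctsd and Ctsh included 1. At 48 h of brequinar the 132 cells with the largest share were compared with the other 396. The 6 genes took only 0.699% of the UMIs of the 132 cells and 0.0304% of those of the 396. The 132 cells thus held a smaller share than the 723 withdrawal cells and are not a match for the 240. Ctsb (255 against 171 CPM), Ctsz (322 against 234 CPM) and Ctsa (196 against 154 CPM) were higher in the 132 cells. Cd63 was lower (1164 against 1540 CPM), and the other genes had intervals that included 1.

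Genes whose log2 levels over the 10 conditions were most like those of Ctss, Ctsb and Ctsc, the 3 genes with the largest range, were looked up among 4290 genes. Ctss was most like Atp6v1c1 (Pearson r 0.97), Lrrc25 (0.97) and Ugdh (0.96). The correlation does not measure the size of a change. Atp6v1c1 ranged only from 56.3 to 82.8 CPM over the conditions, and Ctss from 1.22 to 73.1 CPM. Ctsb was most like Hcst (0.99), Stx11 (0.99) and Asah1 (0.99), and Asah1 encodes the lysosomal acid ceramidase. Ctsc was most like Ly6c2 (0.99), Lrg1 (0.99) and Abhd5 (0.99). The 10 points share 1 pool and their 2 starting cultures, and the 48 h withdrawal culture is the highest point of each of these genes.

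Antisense and copied genes were checked because the strand setting of the counting is not given in the sources used here. In GENCODE M21, exons of Neurl2 and Pltp (Ctsa), Fdft1 (Ctsb), Nelfcd (Ctsz) and Grtp1 (Lamp1) lie on the opposite strand over 10 to 774 exonic bases, and reads from such stretches cannot be told apart without strand. The pseudogene Cd63-ps had 0 UMIs in the cells.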

How the data were processed

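The files the authors deposited hold UMI counts, not normalized, as a spliced and an unspliced matrix that each pool both runs, and the spliced counts were used. Cultures were barcoded with MULTI-seq and libraries made by the 10x Genomics v3 protocol with changes, per the labels' protocols. kallisto 0.46, bustools 0.39.4 and Cell Ranger are named, without roles, per the submitters' processing notes. The build behind the counts is not given in the sources used here. Of 54838 gene IDs, 53947 with their version are in GENCODE M21 (GRCm38), and symbols came from a table of gene names.

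The deposited annotation calls 15582 cell barcodes, of which 2777 doublets (17.8%) and 265 negatives were left out. The other 12540 cells were summed per condition and scaled to CPM, with no further filter and no further doublet caller. The 2 runs share 1 pool of cultures and are not replicates, and barcodes carry no run mark. A gene was measured where either of the cultures compared held 20 CPM, and a ratio of 1.5-fold or more counts as higher or lower. Intervals of ratios are exact conditional binomial (Clopper-Pearson) intervals. The calculation of ratios, intervals and calls was run on simulated data with known folds. The simulated counts were Poisson draws with no variation between cells or between cultures. That is the model the intervals assume, so the run checks the calculation and not whether the model holds for these cultures. Cells were thinned to 2500 UMIs with a fixed seed, leaving out shallower ones.

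The members, lists and alternatives were chosen with earlier results of these data known. All 10 genes are named. In each list the genes named come from those with the largest ratios in a direction; Neu1, Glb1 and Cstb, and genes with a single lower call, were picked after their values were seen. Protein sequences were planned but not analysed here. The sets of cells with Ctss and of cells rich in granule genes were also defined after seeing the data. Python 3.11.15, numpy 2.4.6, scipy 1.17.1, pandas 2.3.3 and matplotlib 3.10.9 were used.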

Additional observations from a re-analysis of the deposited data

Results flagged for a closer look

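In 6 steps the series moved in opposite directions with intervals that exclude 1 on both sides, and the difference between the series was not tested. Ctss from 24 to 48 h had a ratio of 0.51 with brequinar and 16.9 with withdrawal, and from 12 to 24 h 5.13 with brequinar and 0.54 with withdrawal. Cd63 from 24 to 48 h had a ratio of 1.11 with brequinar and 0.79 with withdrawal. Ctsa at 12 h over 0 h was 0.92 with brequinar and 1.19 with withdrawal. Ctsz from 6 to 12 h was 0.89 with brequinar and 1.24 with withdrawal. Ctsd from 12 to 24 h was 1.90 with brequinar and 0.47 with withdrawal, at levels under that in free RNA.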

How the results depend on the processing

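No paired analysis was possible because each condition was 1 culture. Leaving out a run was not possible, since both runs share 1 matrix and barcodes carry no run mark. No called fold of a single gene changed sign under any alternative, and none moved by over 1.5 times. By a tighter measure, 96 folds of single genes fell outside the interval of the main value and 688 did not. Most of the 96 came with thinned cells (32) and median-of-ratios scaling (30). Of the medians, 27 moved by at least 0.0644, the standard deviation of log2 ratios of all genes between the 0 h cultures, and 124 did not. Calls against 0 h that were lost were Lamp1 at 12 h of brequinar (1.19, thinned cells), Ctsz at 12 h of brequinar (0.68, mean over cells), Lamp2 at 12 h of withdrawal (1.47, mean over cells), Ctsb at 12 h of withdrawal (1.497, 0 h culture of the other series) and Cd63 at 48 h of withdrawal (1.496, totals without mitochondrial and ribosomal protein genes). The counts that moved by more than 1.5 times were these. At 12 h of brequinar the count of higher genes was 0 at a 2-fold threshold and 1 among genes at 20 CPM or more at 0 h (an alternative added after seeing the data), and the count of lower genes was 0 at 2-fold and 0 with the mean over cells. At 12 h of withdrawal it was 1 higher at 2-fold. With no filter on low values, which lets in genes under 20 CPM, higher genes numbered 7 at 24 h of brequinar, and 2, 5 and 7 at 6, 12 and 24 h of withdrawal; brequinar over withdrawal then gave 1 higher at 0 h, 1 lower at 6 h, 2 lower at 12 h and 2 higher at 24 h. With cells thinned to 2500 UMIs, 1 was higher and 1 lower at 6 h of withdrawal, and brequinar over withdrawal gave 1 higher at 0 h, 1 lower at 6 h and 1 lower at 12 h. At 48 h brequinar over withdrawal gave 6 lower with median-of-ratios scaling and 1 lower at 2-fold. The cause of the thinned, mean-over-cells and scaling differences was not tested. The other alternatives left every count within 1.5 times. They removed free RNA, mitochondria-rich or shallow cells, or the cells richest in the 6 neutrophil genes. The rest left out mitochondrial and ribosomal protein genes or exchanged the 0 h cultures. Depth limits Ctsd, Ctsh and, outside 48 h of withdrawal, Ctss.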
